A study of Mus musculus with 3 samples.

Results

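The clade B serpins of the mouse chromosome 13 cluster were read here on microarrays of 3 cell fractions of epididymal fat. The 10 genes are Serpinb1a, Serpinb1b, Serpinb1c, Serpinb6a, Serpinb6b, Serpinb9, Serpinb9b, Serpinb9e, Serpinb9f and Serpinb9g. They were taken by gene name, which gave 14 of the 56605 probes and 10 of the 37074 gene names on the arrays. They were proposed with their signals on these same arrays known, higher in SPA for several of them, so their values are a description and carry no test.

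Epididymal fat of male C57/BL mice aged 20 weeks was digested with collagenase, and the labels describe no other treatment of any group. After a spin at 9 g for 1 s, the lower phase was taken as stromal vascular cells (SVC). The cells that floated were spun at 226 g for 3 min, and the sediment was regarded as small proliferative adipocytes (SPA) and the floating layer as mature adipocytes (MA). SVC and SPA were cultured in DMEM to 90% confluence before RNA was taken, and the labels describe no culture of MA, so that cell fraction and culture cannot be told apart in a comparison with MA. The labels also carry a date for each sample, which is the same for SVC and SPA and another for MA, and what it marks is not stated, so it cannot be told apart from the fraction either. Each fraction was hybridised to 1 array, with no replicate, and all comparisons below compare single RNA samples. SPA was defined by buoyancy and sedimentation and not by sorting, and a lower signal can mean fewer cells of a type or less RNA per cell, which cannot be told apart in bulk RNA.

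Clade B serpins are intracellular serpins. Most of them trap serine or cysteine proteases by offering a reactive loop as bait, and they are best known for protecting leukocytes and their neighbours from leaked granule proteases. Human SERPINB1 inhibits neutrophil elastase and related neutrophil proteases, Serpinb6 proteins inhibit cathepsin G, and Serpinb9 inhibits granzyme B, the cell-death protease of cytotoxic lymphocytes. In the mouse these genes were multiplied into tandem copies, and the targets of many of the copies are less well known. The question addressed by the arrays was how gene expression differed between SPA, SVC and mature adipocytes.

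On each array 59305 spots were not controls, of which 58.6% to 61.4% were marked by the scanner software as well above background, and no spot was saturated. A level is the log2 of the processed signal minus the 75th percentile of that array, so that 0 is the 75th percentile. Where several probes carried a gene's name, the brightest on average stood for it. Where a probe was well above background on only 1 array of a pair, the fold is a lower bound, taken either against the dim spot's own value or against the dimmest spot of that array still well above background, whichever is higher. Of 5 adipocyte markers, 3 were well above background in SVC and all 5 in SPA and MA, and their summed level was -0.81, 3.61 and 10.17. Adipoq and Plin1 were the 2 not seen in SVC, with levels of 1.56 and 0.96 in SPA and 8.44 and 6.10 in MA, whereas Lep was -1.36 in SVC, -1.12 in SPA and 0.97 in MA.

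The copies are alike in sequence, so the probes that share the longest runs of bases are shown first. Among 210 pairs of Serpinb probes on chromosome 13, 4 pairs shared a run of 15 or more identical bases, and no other pair shared more than 14. The probes of Serpinb9f and Serpinb9g, both seen in SPA alone, shared a run of 41 bases and 52 identical bases when aligned. Their 60-base probes differed mostly near the end shown here, bases 31 to 60 of the Serpinb9f probe and 30 to 59 of the Serpinb9g probe, with the 5 bases that differ between them in capitals:
Serpinb9f: ttctatctgttttcaatatAtTtaCAtAtc
Serpinb9g: ttctatctgttttcaatatGtAtaAGtGtc

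The Serpinb9f probe was also annotated to a transcript of Serpinb9e, so its signal may hold RNA of either gene. Whether the Serpinb9f probe also takes up RNA of Serpinb9e or Serpinb9g was not tested. The Serpinb6 copies were the other set with shared probe sequence. The brightest Serpinb6a probe shared 26 bases with a probe of Serpinb6c and 18 with that of Serpinb6e, and bases that differ from Serpinb6a are in capitals (bases 1 to 30 of the Serpinb6a probe, 19 to 48 of the Serpinb6c probe and 6 to 35 of the Serpinb6e probe):
Serpinb6a: aagtgaccttatccataagtgcaatggcaa
Serpinb6c: aagtgaccttatccataagtgcaatgAcaG
Serpinb6e: aagtgaccttatccataaAtATaatgAcaG

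The promoters of the 3 genes seen in SPA alone were close copies of each other. RefSeq promoters of build GRCm38.p6, 250 bases before to 50 after the start, were matched for 9 of the 10 genes, without Serpinb1a. Serpinb9e, Serpinb9f and Serpinb9g were 89.1% to 93.4% identical to each other over the alignment. They are shown with the hexamer TGACGT in capitals, at chr13:33249358-33249657, chr13:33323827-33324126 and chr13:33484540-33484839, all on the plus strand:
Serpinb9e: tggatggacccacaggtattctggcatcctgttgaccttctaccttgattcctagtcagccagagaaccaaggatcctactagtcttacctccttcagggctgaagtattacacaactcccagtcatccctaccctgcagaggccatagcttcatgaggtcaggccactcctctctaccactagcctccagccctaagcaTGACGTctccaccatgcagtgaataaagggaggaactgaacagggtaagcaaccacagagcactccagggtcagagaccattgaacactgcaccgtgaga
Serpinb9f: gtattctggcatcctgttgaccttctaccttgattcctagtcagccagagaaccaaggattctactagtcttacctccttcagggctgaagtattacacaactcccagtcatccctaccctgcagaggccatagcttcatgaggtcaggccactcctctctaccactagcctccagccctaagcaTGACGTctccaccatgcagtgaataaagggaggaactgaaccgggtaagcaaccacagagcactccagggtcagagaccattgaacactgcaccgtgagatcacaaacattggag
Serpinb9g: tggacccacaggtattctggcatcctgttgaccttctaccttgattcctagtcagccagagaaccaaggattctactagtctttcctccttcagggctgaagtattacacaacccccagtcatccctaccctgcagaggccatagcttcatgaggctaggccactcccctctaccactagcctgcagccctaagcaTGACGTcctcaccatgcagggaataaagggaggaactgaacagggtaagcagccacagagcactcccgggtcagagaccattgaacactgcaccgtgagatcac

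Serpinb9d, which is not among the 10 genes, belonged to the same group of promoters, and the 6 pairs of the 4 genes were 82.9% to 93.4% identical. Serpinb9c lay further off, at 57.3% to 62.3% against these 4 for 1 of its starts and at 49.1% to 51.5% for the other. The promoters of Serpinb9 and Serpinb9b, at 41.3% to 44.6%, lay within the range of the remaining 149 pairs of the cluster, 30.2% to 66.9%. Serpinb9h, whose promoter lies between those of Serpinb9f and Serpinb9g, was among these remaining pairs, at 45.2% to 47.8% against the 4 genes. TGACGT, searched on both strands, was chosen after the sequences had been read. It was found in 5 of the 19 promoters of the cluster and in 7.51% of all 32851 promoters of this length, and the 5 were Serpinb9c (at 1 of its starts), Serpinb9d, Serpinb9e, Serpinb9f and Serpinb9g. In these 5 it lay between 42 and 65 bases before the start. TGANTCA was in 0 of the 19 cluster promoters against 7.81% of all, TATAAA in 2 against 13.6%, TTCNNNGAA in 2 against 8.3% and CCAAT in 3 against 37.4%. AATAAA was in 9 of the 19 against 19.6% of all, 4 of them within the 5 that hold TGACGT. A match is a run of letters and does not show that a factor binds there.

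**Figure D1:**
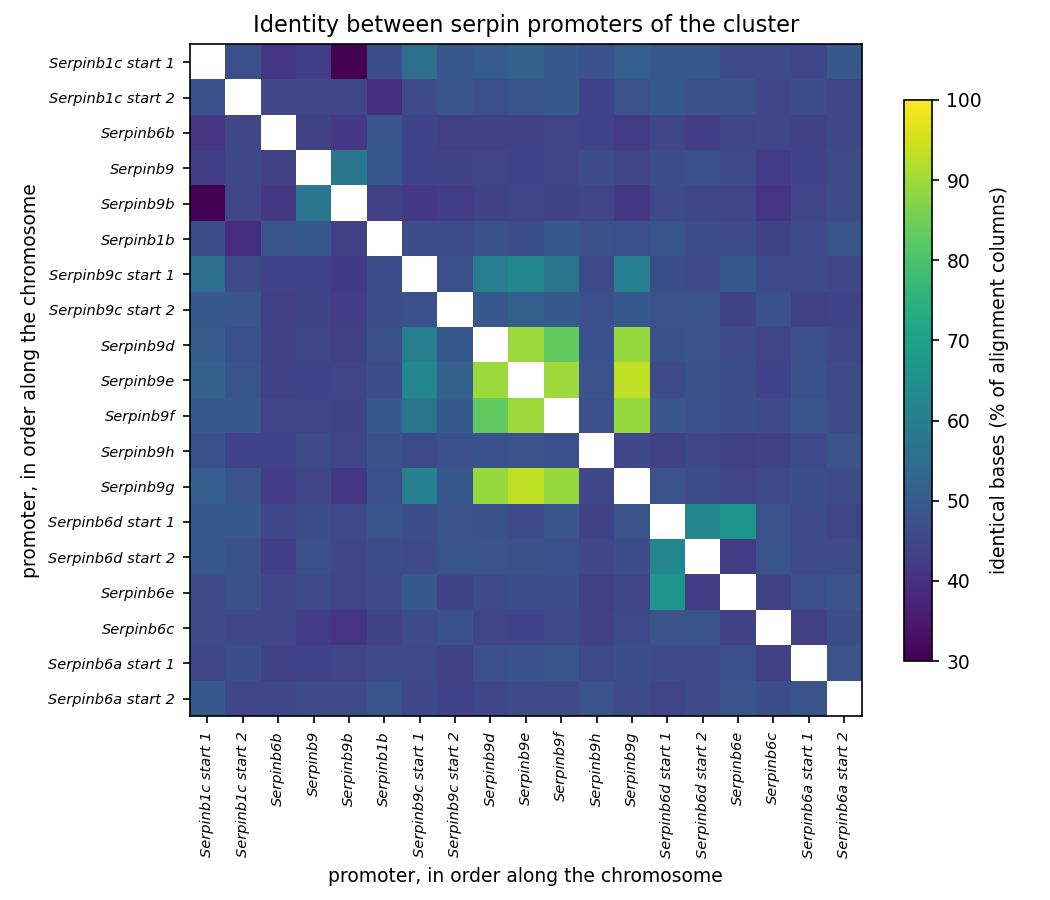
Identical bases between the RefSeq promoters of 15 serpin genes of the cluster (19 promoters, in order along the chromosome), as a percentage of the columns of each alignment. Serpinb9d, Serpinb9e, Serpinb9f and Serpinb9g are bright against each other, at 82.9% to 93.4%. Serpinb9h, which lies between Serpinb9f and Serpinb9g, cuts through them at 45.2% to 47.8%.

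Serpinb9e, Serpinb9f, Serpinb9g and Serpinb1b exceeded their SVC signal by 5-fold or more in SPA, Serpinb9 was 2.46-fold higher, and none of the 10 was 2-fold lower. SVC, SPA or both gave a signal well above background for 9 of the 10, 6 of them on both arrays and 3 in SPA only. At 5-fold or more 4 were higher in SPA (Serpinb1b, Serpinb9e, Serpinb9f and Serpinb9g), where 0.322% of 22664 genes were, and 0 were lower, where 0.353% were. At 2-fold or more 5 were higher, with Serpinb9 as the fifth, where 3.9% of all genes were, and 0 were lower, where 3.25% were. These contrasts helped to choose the genes, and nothing is read from the difference between those shares. The 3 genes seen in SPA alone could only be higher there. The median log2 ratio was 1.30 with bounds and 0.43 over the 6 measured on both arrays, against 0.07 and 0.05 over all genes.

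In MA the 9 genes that could be read were at least 2-fold lower than in SPA, and 4 of these 9 were not well above background in MA, so that they could only be lower there. Serpinb9b was well above background on neither array. At 5-fold or more 4 were lower, where 3.98% of 23957 genes were, and 0 were higher, where 5.49% were. At 2-fold or more 9 were lower, where 17.9% of genes were, and 0 were higher, where 15.8% were. Without spots of outlying local background 7 were 2-fold or more lower, as Serpinb1a and Serpinb9e then have no ratio. The median log2 ratio was -2.31 with bounds and -1.59 for the 5 genes measured on both arrays, and over all genes it was -0.07 and -0.08. This comparison and the one above share the SPA array, so they are not independent.

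Between MA and SVC, which does not involve SPA, 6 of the 10 could be read on 1 or both arrays. At 5-fold or more 0 were lower, where 3.97% of 23454 genes were, and 0 were higher, where 5.74% were. At 2-fold or more 4 were lower in MA (Serpinb1b, Serpinb1c, Serpinb6a and Serpinb6b), where 18% of genes were, and 0 were higher, where 17.3% were. Serpinb1a was 1.96-fold lower, just short of that, and Serpinb9 was at 1.01. The median log2 ratio with bounds was -1.55, against -0.001 over all genes.

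**Figure D2:**
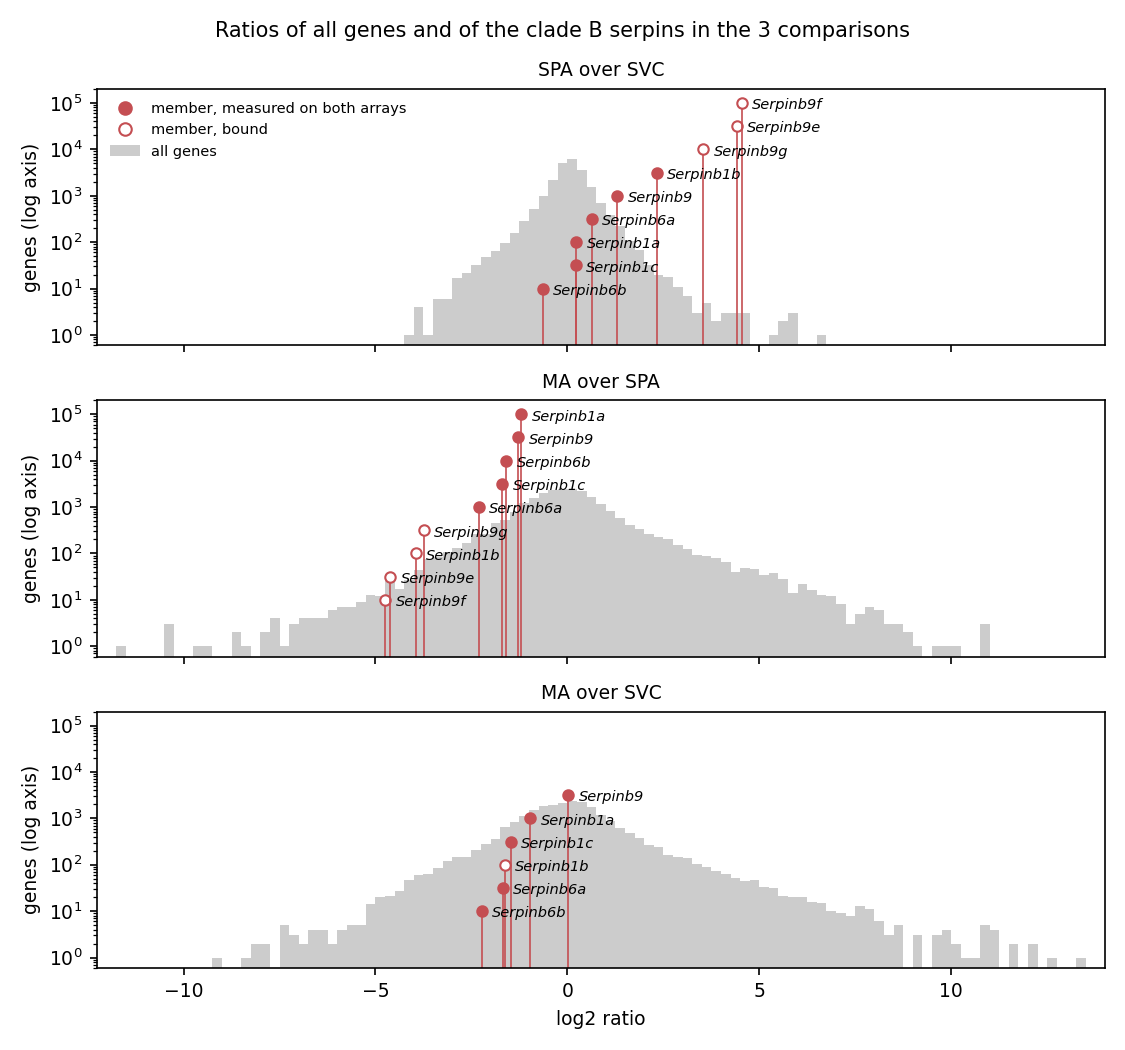
Log2 ratios of all genes (grey bars, number of genes on a log axis, in steps of 0.25) and of the serpins (red stems, filled where measured on both arrays and open where a bound) in the 3 comparisons. The stems' heights carry no value. In SPA over SVC the open circles of Serpinb9e, Serpinb9f and Serpinb9g lie at 3.54 to 4.55, and in MA over SPA all 9 lie below -1.

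Serpinb9e, Serpinb9f and Serpinb9g, copies of the granzyme B inhibitor Serpinb9 whose own targets are less clear, were seen in SPA alone. The processed signal of Serpinb9e was 4.64 in SVC, 303 in SPA and 2.11 in MA. That of Serpinb9f was 3.26, 331 and 2.39, and that of Serpinb9g was 3.38, 165 and 2.51. In all 3 the SVC and MA signals were not well above background, and only the SPA spot was. The raw SPA signal was 10.6, 12 and 6.01 times the local background for Serpinb9e, Serpinb9f and Serpinb9g, and in SVC it was 1.1, 1.21 and 0.993 times.

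The lower bounds of the fold in SPA over SVC were at least 21.4-fold for Serpinb9e, at least 23.4-fold for Serpinb9f and at least 11.7-fold for Serpinb9g. Over MA the signals in SPA were at least 24.5-fold, 26.8-fold and 13.4-fold higher, respectively. With normexp background correction in place of the processed signal, the log2 ratios of SPA over SVC were 2.44, 2.42 and 1.60, and Serpinb9g no longer passed 5-fold. The spot of Serpinb9e carried an outlying local background on all 3 arrays, and without such spots it has no value. There were 735 genes well above background in SPA and on no other array, 3.31% of the 22232 genes that were so in SPA. Of these 735, 9 had a lower bound of 5-fold or more over both SVC and MA, and Serpinb9e, Serpinb9f and Serpinb9g were 3 of the 9. At 10-fold or more there were 4, these 3 and H2-M1, a gene of the major histocompatibility complex region. The other 5 of the 9 were Nyx, Cyp1a1, Sult2a6, Il1f9 and 1700008C04Rik. The 3 serpins were chosen with their SPA signals known, so nothing is read from their place in these lists. Their probes share sequence or annotation as described above, so they may not be 3 separate readings.

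The surroundings of these spots on the array were read as well. Among spots within 16 rows and 8 columns of each probe that were dim in SVC, 12.2% around Serpinb9e, 7.17% around Serpinb9f and 12.7% around Serpinb9g were well above background in SPA. Over the whole array that share was 9.77% of 24573 spots, between the values around Serpinb9f and around the other two.

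Serpinb9c and Serpinb9d, copies that lie between Serpinb1b and Serpinb9e on the map and are not among the 10 genes, were also well above background in SPA alone. Serpinb9c read 2.82 in SVC, 20.3 in SPA and 2.10 in MA. The brighter Serpinb9d probe read 3.34, 27.7 and 2.44 and the other 3.38, 18.1 and 2.48. The bounds of the 3 probes over SVC were at least 1.43-fold, 1.95-fold and 1.28-fold. SPA was the high sample for each, and signals this near the background give a low bound whatever the true difference. Their probes share no run of 15 or more bases with those of Serpinb9e, Serpinb9f or Serpinb9g. Whether they take up RNA of those copies was not tested.

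Serpinb9 itself, the inhibitor of granzyme B, was present on all 3 arrays. Its signal was 843 in SVC, 2119 in SPA and 727 in MA. SPA was the high sample, 2.46-fold over SVC (log2 ratio 1.30, spot error 0.20) and 2.43-fold over MA, and MA and SVC differed by less than the spot error (log2 ratio 0.02). Serpinb9b, a related copy known as an inhibitor of granzyme M, was not well above background on any array, with signals of 2.75, 2.46 and 2.04 in SVC, SPA and MA, and it has no ratio.

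Serpinb1b, a Serpinb1 copy, had the widest difference between SPA and SVC among the 6 genes measured on both arrays. Its signal was 37.6 in SVC, 192 in SPA and 2.43 in MA, where it was not well above background. SPA was 5.01-fold above SVC (log2 ratio 2.32, spot error 0.24), the value nearest to the 5-fold limit from above, and at least 15.5-fold above MA. SVC was at least 3.1-fold above MA. The call at 5-fold over SVC does not survive other scalings. The log2 ratio was 2.27 with quantile normalization, 2.28 with the percentile taken from detected probes and 2.31 with the deposited ratios, all just short of 5-fold, and 1.35 with normexp background correction. With normexp that of MA over SPA was -1.70, short of 5-fold, and that of MA over SVC was -0.35, short of 2-fold.

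Serpinb1a, the copy most like the human elastase inhibitor, and Serpinb1c, another copy, were read on all 3 arrays. Serpinb1a read 1819 in SVC, 2172 in SPA and 787 in MA. Serpinb1c read 263, 312 and 80.4 at its brighter probe and 36.2, 33.4 and 11.4 at the other. Between SPA and SVC the 2 cultured fractions were close, with Serpinb1a 1.17-fold and Serpinb1c 1.16-fold higher in SPA, and the other Serpinb1c probe 1.1-fold lower. The log2 ratios of 0.23 and 0.22 were near their spot error of about 0.20, and that of the other probe, -0.14, was below its 0.26. MA was the low sample for each, 2.3-fold below SPA for Serpinb1a and 3.23-fold and 2.44-fold below for the 2 Serpinb1c probes. The MA spot of Serpinb1a carried an outlying local background, and without such spots Serpinb1a has no ratio with MA.

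Serpinb6a, a cathepsin G inhibitor found in many cell types, was highest in SPA and lowest in MA. Its probe read 42410 in SVC, 66970 in SPA and 11240 in MA, and a second probe read 5212, 8041 and 1494. Both ran the same way, with SPA 1.55-fold and 1.51-fold above SVC and MA 4.97-fold and 4.48-fold below SPA. The 4.97-fold is the value nearest to the 5-fold limit from below. With quantile normalization the log2 ratios of the brightest probe were -1.74 for MA over SPA, in place of -2.31, and -1.05 for MA over SVC, in place of -1.68. The remaining Serpinb6a probes were dim, at 15.5, 22.3 and 7.02 for the third, which was not well above background in MA, and at 7.88, 12.9 and 8.02 for the fourth, which was so on no array.

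Serpinb6b was the gene that ran lower in SPA than in SVC. It read 1516 in SVC, 989 in SPA and 274 in MA, a difference of 1.56-fold between SVC and SPA (log2 ratio -0.64, spot error 0.20). MA was 3.01-fold below SPA and 4.71-fold below SVC. Serpinb6c, Serpinb6d and Serpinb6e, which are not among the 10, followed the order of Serpinb6a, with SPA 1.40-fold to 1.60-fold above SVC and MA 4.34-fold to 5.77-fold below SPA over their 4 probes. The Serpinb6c and Serpinb6e probes share the bases printed above with Serpinb6a, so cross-hybridisation between these copies was not tested.

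Across the arrays the cluster covered 1.14 Mb of chromosome 13, from 32934693 to 34078430 of mm9. The 4 genes past 5-fold in SPA over SVC lay between Serpinb9b and Serpinb6d. From the first probe the order is Serpinb1a, Serpinb1c, Serpinb6b, Serpinb9, Serpinb9b, Serpinb1b, Serpinb9c, Serpinb9d, Serpinb9e, Serpinb9f and Serpinb9g, followed by the Serpinb6 copies from Serpinb6d to Serpinb6a. Serpinb9e, Serpinb9f and Serpinb9g were at chr13:33352399-33352458, chr13:33427039-33427098 and chr13:33587669-33587728. Serpinb1b was at chr13:33185999-33186058.

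**Figure D3:**
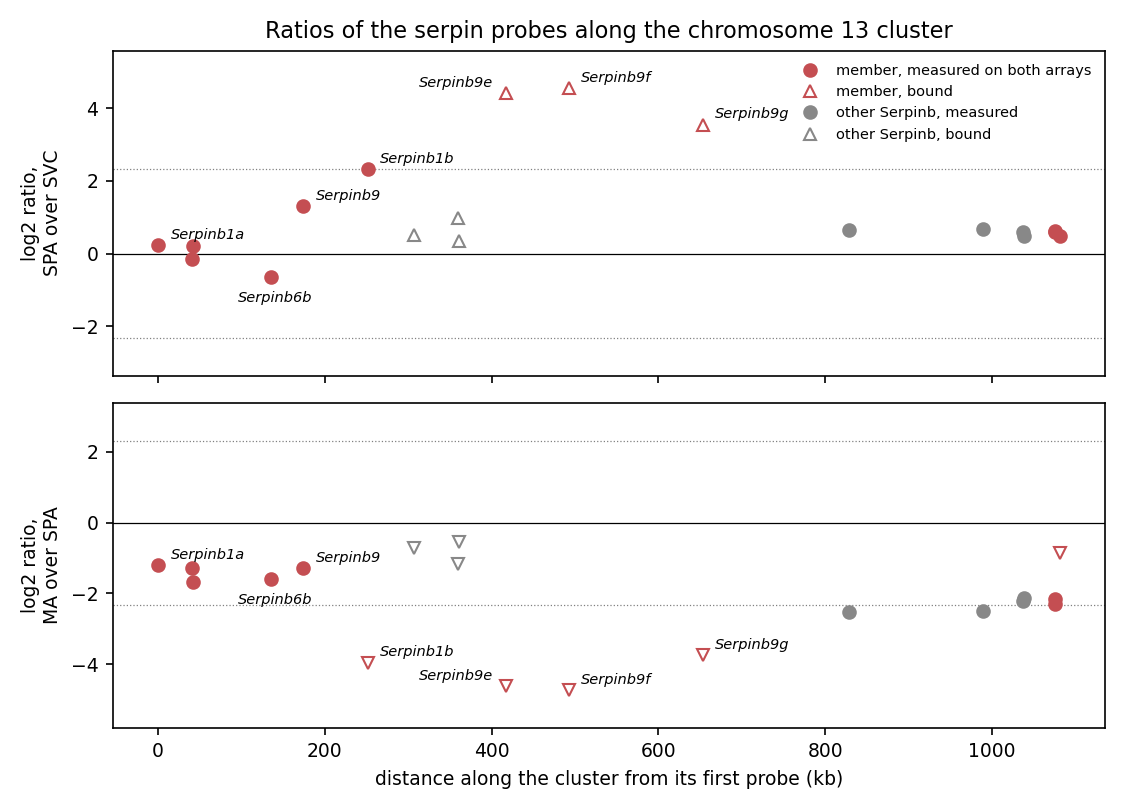
Log2 ratio of each Serpinb probe in SPA over SVC and in MA over SPA, against its distance in kb from the first probe of the cluster. Red marks are the 10 genes, grey marks the other 5 Serpinb genes, open triangles are bounds, and the dotted lines mark 5-fold. The high ratios in the upper panel lie at Serpinb1b, Serpinb9e, Serpinb9f and Serpinb9g, while the Serpinb6 copies at the far end lie between 0.49 and 0.67.

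Genes in and around the cluster were read for comparison. Of 37 other genes inside it or within 1 Mb of it, 27 were well above background in SVC or SPA, and 0 were 5-fold or more higher in SPA. Slc22a23 was 3.77-fold higher. A transcript named only by ENSMUST00000140484, with a probe inside the cluster between those of Serpinb1c and Serpinb6b, was 4.69-fold higher. No neighbour was 2-fold lower. Their median log2 ratio with bounds was 0.08. Between MA and SPA 27 of the neighbours could be read. At 2-fold or more 8 were higher in MA, where 15.8% of all genes were, and 4 were lower, where 17.9% were. Their median log2 ratio with bounds was 0.095. In MA 1110046J04Rik, with a probe between those of Serpinb6a, was 10.3-fold lower than in SPA and Tubb2b 18.3-fold lower, and Pxdc1 was 10.1-fold higher. Of 12 Serpinb genes of the cluster on chromosome 1, 4 were well above background in SVC or SPA, 3 of them on both arrays. At 2-fold or more 0 were called higher in SPA, where 3.9% of all genes were, and 0 lower, where 3.25% were. The gene seen on 1 array only, Serpinb5, read 14.45 in SVC and 2.52 in SPA. Its bound of at least 1.18-fold lower in SPA cannot show whether it passed 2-fold. Serpinb2, the plasminogen activator inhibitor of that cluster, read 750, 496 and 205 in SVC, SPA and MA, and Serpinb8 read 3424, 4168 and 5571 at its brighter probe. At the other Serpinb8 probe it read 152, 188 and 95.7, so that the probes ran opposite ways between SPA and MA.

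A list of 19 genes held proteases of leukocyte granules and lysosomes, among them targets of these serpins. It also held the caspase gene Casp1 and the pore protein gene Prf1. Well above background were 7 in SVC, 6 in SPA and 12 in MA. The level of Elane, the neutrophil elastase, was 1.01 in SVC, 1.84 in SPA and 1.23 in MA, and that of the caspase gene Casp1 was 1.78, 2.80 and 1.16. Both were highest in SPA. The granule proteases Gzma, Gzmb, Gzmk, Prtn3, Cma1 and Mcpt4 were well above background in MA alone, with levels of 2.06 for Gzma, -1.86 for Gzmb and -1.23 for Prtn3. Gzmm, the granzyme M gene, was at -3.48, -2.66 and -3.35 in SVC, SPA and MA. Ctsg, a target of the Serpinb6 proteins, was well above background on no array. The lysosomal proteases Ctss and Ctsl were at 6.69 and 6.52 in SVC, 7.21 and 7.36 in SPA and 3.72 and 6.17 in MA. Of the 7 that could be read in SVC or SPA, 1 was 2-fold or more higher in SPA (Casp1) and 1 lower (Gzmc), where 3.9% and 3.25% of all genes were. Of the 12 that could be read in SPA or MA, 5 were 2-fold or more higher in MA (Gzma, Gzmb, Prtn3, Cma1 and Mcpt4) and 3 lower (Casp1, Ctss and Ctsl), where 15.8% and 17.9% of all genes were.

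Clade B serpins are made by leukocytes as well as other cells, and markers of these were read beside them. All 6 macrophage markers were well above background on the 3 arrays, and their summed level was 9.05 in SVC, 9.19 in SPA and 7.49 in MA. Within the list the level of Cd68 was 5.42, 6.30 and 3.20 in the same order, and that of C1qa was 2.68, -0.51 and 2.99. For neutrophils, 5 to 6 of 7 markers were well above background and the summed level was 1.18, 2.87 and 2.13, while the list's median was -1.95, -1.91 and -2.18. S100a8 carried the higher sum in SPA, with levels of 0.05, 2.62 and 1.35, and S100a9 was -2.43 in SVC, 0.21 in MA and not well above background in SPA. For T and NK cells, the number of 7 markers well above background was 3 for SVC, 4 for SPA and 6 for MA. Their summed level, set mostly by Cd3e, was 1.99, 2.10 and 2.47, and their median was -4.88, -4.86 and -1.27. Nkg7, Klrb1c and Ncr1 were well above background in MA alone, like the granzymes named above. Their part in the serpin values was not tested.

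Other cell types also differed between the arrays. The summed level of mesothelial markers was 4.34 in SVC, 1.75 in SPA and 4.13 in MA, all 5 of them well above background on each. Fibroblast markers summed to 7.57, 6.50 and 7.89, and endothelial markers to 0.04, 0.31 and 4.27. Mast cell markers summed to -1.80, -1.79 and 0.77, with 2 of 5 well above background in SVC and SPA. Erythrocyte markers were at -1.75, -1.58 and 9.37, with 2 of 4 well above background in SVC and SPA and 4 in MA. None of the 5 markers of epididymal epithelium was well above background on any array. The part of these cell types in the values was likewise not tested.

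Serpinb6a had the widest range among the 5 genes measured on all 3 arrays, 2.31 on the log2 scale, ahead of Serpinb6b at 2.24, Serpinb1c at 1.69, Serpinb9 at 1.30 and Serpinb1a at 1.20. The lead over Serpinb6b is smaller than the spot error of 0.20, and the order turned with quantile normalization (1.74 against 2.25) and with the median probe (2.16 against 2.24), so the genes listed next rest on a close choice. The genes nearest to its course, by the distance between their 2 log2 ratios (SPA over SVC and MA over SPA) over 19865 genes, were Adamtsl5 at 0.02, Stx3 at 0.02, Pik3r5 at 0.03, Fbxo2 at 0.03 and Slc7a4 at 0.04. With 3 arrays and this many genes, close matches are plentiful, and the list is a description.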

How the data were processed

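Gene expression in SVC, SPA and MA was measured with 3 Agilent 1-colour (Cy3) mouse arrays, 1 per group, on 1 slide and in 1 scan. The labels date MA apart from SVC and SPA, without saying what the date marks. Samples were grouped by their source names. The authors deposited spot intensity from Agilent Feature Extraction 10.7.3.1, namely a processed signal corrected for background within the array, the raw signal, the local background and quality marks. The authors also deposited a linear ratio of each processed signal to 1 constant per array, which was used only as an alternative. The study's methods name GeneSpring GX. Per the file headers, probe positions are on mm9. Promoters and gene names came from RefSeq tables of GRCm38.p6, and no coordinate was moved between the builds.

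Control spots and outlier spots (75 in SVC, 98 in SPA and 129 in MA) were left out. The log2 processed signal was scaled to the 75th percentile of each array, which was 430.4 in SVC, 439.1 in SPA and 365.8 in MA. Spots of 1 probe were averaged and bounds were set as described above, with the lowest signal well above background at 13.9, 12.5 and 10.3. Ratios were called at 5-fold, the rule of the study, and at 2-fold. With 1 array per group there is no test, and the spot error of the scanner software covers 1 spot and not the spread between mice or cultures. The number of arrays limits the precision. The steps were tested on simulated data in which only genes well above background in SVC were changed. A gene dim in SVC and bright in SPA, as Serpinb9e, Serpinb9f and Serpinb9g were, was not simulated.

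The rule for named genes covered all 10 serpins with every probe, the other Serpinb genes, genes within 1 Mb, the protease and marker lists, and the 5 genes nearest to the serpin with the widest range. The serpins are given in full. Of the chromosome 1 Serpinb genes, the neighbours and the lists, counts are given and the few genes printed with values were chosen after these were seen, as were H2-M1 and the genes beside it. The serpins and lists were chosen with earlier results of these data known. The 9 alternatives were normexp background correction (limma 3.58.1, offset 50), quantile normalization, a 75th percentile taken only from probes detected on the 3 arrays, the deposited ratio table, plain ratios with no bounds, ratios with both arrays well above background, the median probe, the probe with the largest ratio, and no spots of outlying local background. Python 3.11.15 with numpy 2.4.6 and pandas 2.3.3, and R 4.3.3 were used.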

Additional observations from a re-analysis of the deposited data

How the results depend on the processing

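The 9 alternatives gave 108 counts of serpins past a fold. Many of these were 0 both as reported and under the alternative. With another choice of probe, a count could move only through the genes with several probes. Of the 108, 101 stayed within 1.5 times the value reported. Within these, 3 serpins in place of 4 were 5-fold or more higher in SPA than in SVC with quantile normalization, with the percentile taken from detected probes and with the deposited ratios, each through the loss of Serpinb1b, and without spots of outlying local background, through Serpinb9e. With normexp background correction, which adds an offset to every signal, 2 serpins in place of 4 were 5-fold or more higher in SPA than in SVC, and 2 in place of 4 were 5-fold or more lower in MA than in SPA. Without a filter on dim probes, 1 serpin in place of 0 was 5-fold or more lower in MA than in SVC. With ratios kept where both arrays were well above background, which leaves out Serpinb9e, Serpinb9f and Serpinb9g by construction, 1 serpin was 5-fold and 2 were 2-fold or more higher in SPA than in SVC, and in MA 0 were 5-fold and 5 were 2-fold or more lower than in SPA.

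Of 204 ratios of single serpins, 183 moved by less than the spot error and 21 by more. The smallest error over the probes of a gene was used, and bounds, which have no spot error, were held against a fixed 0.20. Some of the 204 could not move, such as the median probe of a gene with 1 probe. In 2 cases the sign changed, both the ratio of Serpinb9 between MA and SVC. It was 0.02 and turned to just below 0 with normexp and with the deposited ratios. With normexp the log2 ratio of SPA over SVC was 1.35 for Serpinb1b, 2.44 for Serpinb9e, 2.42 for Serpinb9f and 1.60 for Serpinb9g. Quantile normalization moved Serpinb6a to -1.74 for MA over SPA and -1.05 for MA over SVC. Without spots of outlying local background Serpinb9e has no value and Serpinb1a has none in MA. In that setting 7 serpins in place of 9 were 2-fold or more lower in MA than in SPA. With 1 array per group, no result can be set against the spread between mice or cultures, and signals near the background allow only bounds. No paired analysis was possible because each group holds 1 array.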
